A study of Arabidopsis thaliana with 2 samples.

Results

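The LHY binding peaks described here lay 301 to 1000 bp upstream of the transcription start site (TSS) of the gene they were paired with. They were taken from the authors' list of genes bound by LHY as every gene and peak pair whose listed position was −1000 to −301 bp. The rule found 420 of the 1762 pairs in the list (23.8%), at 416 of its 1602 genes. The study used an antiserum to LHY for chromatin immunoprecipitation and sequencing (ChIP-seq) of wild-type Arabidopsis thaliana seedlings, ecotype Col-0, 2 weeks old and harvested 2 h after dawn. DNA from 4 ChIP samples was pooled into 1 library, and the control was 1 library of input DNA from seedlings of the same genotype, age and time of day. Neither group had a replicate library, and the background of the antiserum in plants without LHY was not analysed here. Because position itself chose the members, positions and peak strengths are given as a description and were not tested.

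LHY is a MYB-type transcription factor of the plant circadian clock that accumulates around dawn together with its close homologue CCA1. Both bind a short motif known as the evening element and repress genes that are expressed later in the day, including other clock genes. LHY is also known to act on genes of flowering time, cold response and hormone signalling. A binding site near a gene need not change its expression, and expression was not measured in this series.

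Peak strength is the authors' −log10 q from the peak caller. A high value says that reads in the ChIP library exceeded the input by more than the caller's background model allowed, and it grows with sequencing depth as well as with enrichment. Depth was unknown, and the values carried no replicate error. Chromatin had been sheared to fragments of 100 to 1000 bp, so the fragments limit how finely a position can be known.

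Over the 420 pairs, −log10 q had a median of 10.3 (exact 95% interval 9.11 to 11.3), with quartiles of 6.40 and 18.3 and extremes of 2.31 and 202. The median over all 1762 pairs was 10.2. Peaks 51 to 300 bp upstream had a median of 11.6, those 1 to 50 bp upstream 10.3, and those at or downstream of the TSS 10.0. Farther out, the medians were 9.38 from 1001 to 2000 bp and 9.39 beyond 2000 bp. The interval of each of these medians overlapped the one of the peaks 301 to 1000 bp upstream. Of the 420 pairs, 21 (5.0%) exceeded 50, against 5.90% of the whole list, and 7 exceeded 100. They made up 3 of the 10 strongest pairs of the list, 6 of the strongest 20 and 20 of the strongest 100.

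The strongest pairs belonged to transcription factors, to a clock gene, to enzymes and to genes of unknown function. CBF1 (AT4G25490), which activates cold-response genes, had the highest value, 202 at −772 bp. GI (AT1G22770), a large protein that acts in the evening clock and in day-length sensing, had 162 at −861 bp. CHE (AT5G08330), a TCP factor that represses CCA1, had 77.3 at −961 bp. The 3 peaks lay in the distal part of the interval, and each of these genes had another, weaker peak elsewhere.

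Other transcription factors among the strongest 20 pairs came from several families. The B-box zinc finger genes BBX29 (AT5G54470) and BBX28 (AT4G27310), members of a family that acts in light-dependent seedling development, had 86.8 at −494 bp and 71.5 at −600 bp. CRF4 (AT4G27950), a cytokinin response factor, had 74.8 at −568 bp. HCA2 (AT5G62940), a DOF factor that promotes cambial activity, had 64.6 at −604 bp. Of these 4 genes, BBX29 had a phase of expression in the authors' table.

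Enzymes and other proteins of known family made up much of the remainder. CcdA (AT5G54290), a thylakoid protein of cytochrome assembly, had 109 at −566 bp. GER3 (AT5G20630), a germin-like protein of the cell wall, had 74.5 at −812 bp, and UGT84A2 (AT3G21560), a glucosyltransferase of sinapate metabolism, had 69.8 at −793 bp. FIB (AT4G04020), a plastid fibrillin, had 68.9 at −446 bp. MAPKKK17 (AT2G32510), a protein kinase of stress signalling, had 63.8, and DFL2 (AT4G03400), a GH3-type gene named for its dwarf phenotype in light, had 52.9 at −373 bp. AT2G46580, of the pyridoxamine phosphate oxidase family, had 116 at −422 bp.

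Of the strongest 20 pairs, 4 were at genes that the authors describe as unknown. AT1G70420 had 169 at −957 bp, AT1G05870 had 118 at −527 bp, AT3G60380 had 106 at −865 bp and AT1G75190 had 72.1 at −760 bp. The other 2 of the 20 were AT1G48540, annotated as a dynein light chain protein (99.8 at −322 bp), and AT5G25280, annotated as serine-rich (66.1 at −362 bp). The strongest 20 lay on all 5 chromosomes, and 12 of the genes (60.0%) had a phase, against 32.9% of all 416 genes. Above the upper quartile of −log10 q of this interval, a lower threshold, 42.3% of its genes had a phase (44 of 104). At the same threshold the share was 65.1% (82 of 126) for peaks 51 to 300 bp upstream.

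**Figure D1:**
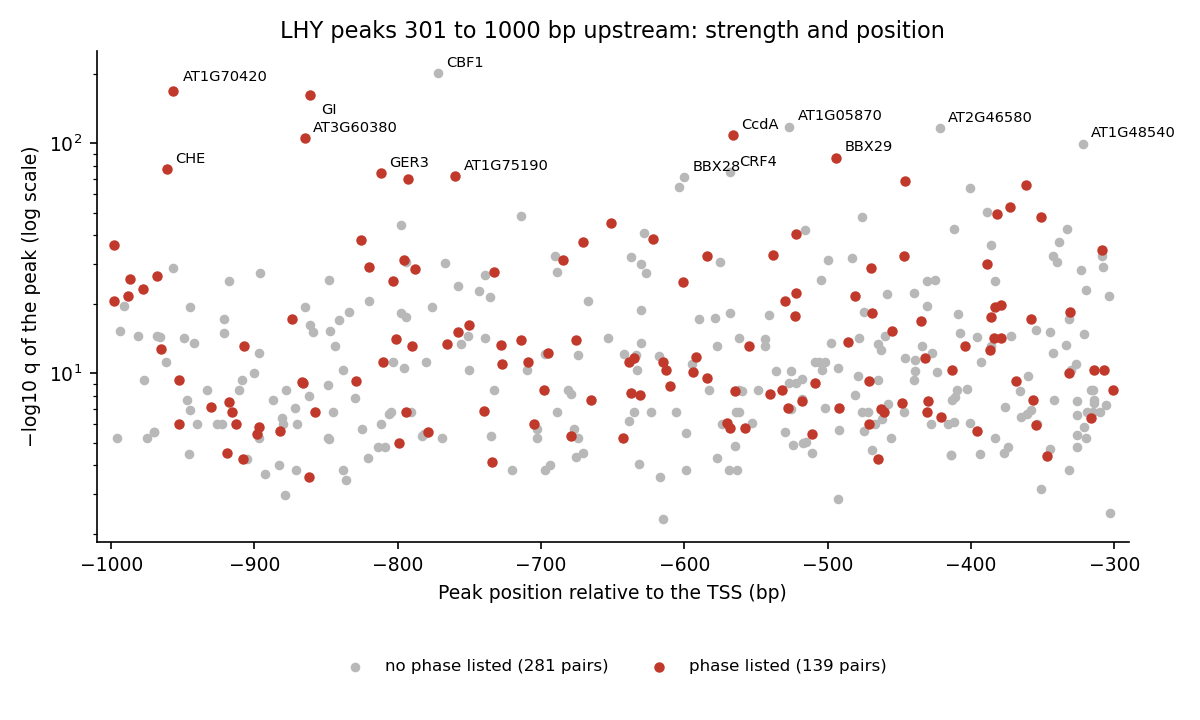
Strength of each of the 420 peaks (−log10 q, log scale) against its position relative to the TSS in bp, with 1 point per gene and peak pair and red points for genes with a listed phase of expression. Strong peaks stand at both ends of the interval, from AT1G70420 (169 at −957 bp) to AT1G48540 (99.8 at −322 bp).

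Within the interval, strength showed no order with distance from the TSS. Positions ran from −998 to −301 bp with a median of −583.5 bp. The number of pairs per 100 bp fell from 79 at 301 to 400 bp upstream to 51 at 601 to 700 bp, and was 46 at 901 to 1000 bp. The median −log10 q per 100 bp ranged from 7.96 at 801 to 900 bp to 13.4 at 701 to 800 bp. The same 801 to 900 bp that held the lowest median also held the peak at GI. Spearman's rho of position and −log10 q was 0.034 over the 420 pairs, a description across genes that all come from 1 library. The plot of strength against position shows the same spread.

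The bounds of the interval separated peaks of similar strength. Just inside the far bound lay peaks at AT4G23870 (20.6 at −998 bp), CP1 (36.1 at −998 bp) and AT5G28400 (5.23 at −996 bp). Just outside it lay BGAL10 (29.3 at −1001 bp), the clock gene PRR5 (78.0 at −1003 bp) and AT3G11420 (6.80 at −1004 bp). At the near bound, AT2G44310 (8.50 at −301 bp), AT1G72950 (2.47 at −303 bp) and HSFA6B (21.7 at −304 bp) were inside. AT1G36095 (2.61 at −299 bp), AT3G62940 (6.34 at −298 bp) and AT1G55340 (9.22 at −296 bp) were outside.

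Equal −log10 q values recurred at unrelated genes. The 420 pairs held 298 distinct values, and 158 pairs had a value that another of the 420 also had. The most common was 6.80, at 18 of the 420 pairs and 70 of the whole list. Ranks among weak peaks are therefore coarse: the 207 pairs up to the list median had 132 distinct values, and the 213 above it had 166.

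Genes of flowering time had the highest share with a peak 301 to 1000 bp upstream among 12 groups of genes of known function. Of 27444 nuclear protein-coding genes, 1.37% had a peak in this interval and 5.38% had any peak in the list. In the group of photoperiodic and floral timing genes, 5 of 15 (33.3%) had a peak in the interval and 8 had a peak anywhere. COL9 (AT3G07650), a CONSTANS-like gene that delays flowering, had 45.1 at −651 bp. CDF5 (AT1G69570) and CDF1 (AT5G62430), DOF factors that repress CONSTANS, had 25.8 at −987 bp and 21.7 at −481 bp. TEM1 (AT1G25560), a repressor of the florigen gene, had 22.8 at −743 bp, and SOC1 (AT2G45660), a MADS-box integrator that promotes flowering, had 10.3 at −750 bp. The 5 genes include both repressors and a promoter of flowering. COL9 had a phase of 10 h, CDF5 of 3 h and CDF1 of 1 h, and none was listed for TEM1 or SOC1. The group is not complete: MAF4 (MADS AFFECTING FLOWERING 4, 42.4 at −333 bp) stood outside it.

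Clock and cold-response genes, like the list as a whole, had most of their peaks at other distances. In the whole list, 26.0% of genes had a peak in the interval. The group of evening clock genes numbered 15, of which 12 were in the list and 2, GI and CHE, had the peak 301 to 1000 bp upstream. Their listed phases, 7 h for GI and 5 h for CHE, fall earlier than the name of the group says. Among 13 morning-phased clock genes, 8 had a peak and 0 had it in this interval. Of 18 cold and freezing response genes, 12 had a peak and 3 had it here. Besides CBF1 these were CBF4 (AT5G51990), a homologue that responds to drought (28.9 at −308 bp), and COR47 (AT1G20440), a dehydrin (13.2 at −907 bp).

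The other groups had at most 1 member in the interval. SEX1 (AT1G10760), the glucan-water dikinase that starts starch breakdown, had 32.4 at −584 bp. It was the single one of the 18 members of the starch group there, although 9 had a peak in the list. The group is not complete: ISA1 (10.3 at −504 bp), BAM4 (8.13 at −679 bp) and PGM (5.59 at −396 bp), outside it, also had peaks in the interval. JAZ6 (AT1G72450), a repressor of jasmonate response, had 17.5 at −579 bp among 19 jasmonate genes. SPA1 (AT2G46340), a partner of COP1 in suppressing light responses, had 7.64 at −357 bp among 20 photoreceptor and light signalling genes. That group is not complete either: PAR2 (18.2 at −409 bp) and PIL2 (6.80 at −461 bp) stood outside it. LHCB1.3 (AT1G29930), a chlorophyll-binding protein gene, had 5.33 at −679 bp among 20 light-harvesting genes. IAA27 (AT4G29080), of the Aux/IAA repressors, had 3.55 at −862 bp among 20 members.

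Of 28 core ABA signalling genes, 8 had a peak in the list and 0 had it in the interval. Of 17 ethylene genes, 1 had a peak and 0 had it there. The ethylene group is not complete: ERF2, an ethylene responsive element binding factor gene, stood outside it with 6.80 at −858 bp. So did ORA59, of the AP2/ERF family, with 14.9 at −321 bp. Of 14 constitutive control genes, 1 had a peak in the interval, the polyubiquitin gene UBQ10 (AT4G05320), with 4.45 at −394 bp. Over all 12 groups, 16 of 217 members (7.37%) had a peak in the interval and 87 (40.1%) had any. Groups were chosen with earlier results of these data known, so these counts do not support a preference of the interval for any group. Among the 16 genes, the median −log10 q was 22.3, and the 4 weakest, UBQ10, LHCB1.3, IAA27 and SPA1, were below the list median. Above that median, 0.74% of the 27444 genes had a peak in the interval.

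A phase of expression was listed for 32.9% of the genes with a peak 301 to 1000 bp upstream and for 38.1% of all genes in the list. The phases are hours after subjective dawn in constant light, from a published database; genes with a listed phase are called rhythmic. Of the 416 genes, 137 were rhythmic (exact interval 28.4 to 37.7%). The share was 46.9% (42.1 to 51.7) for peaks 51 to 300 bp upstream and 52.0% (44.8 to 59.2) for peaks at or downstream of the TSS. It was 35.2% (29.7 to 41.1) from 1001 to 2000 bp and 30.7% (25.3 to 36.5) beyond 2000 bp. The interval for 301 to 1000 bp therefore lay below those of 51 to 300 bp and of the TSS, and overlapped those of both distal classes and of 1 to 50 bp (41.0%, 32.0 to 50.5). No test of these differences was made, and the exact intervals treat genes as independent.

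The share for 301 to 1000 bp was below that for 51 to 300 bp in subsets as well. Among genes with a single peak in the list, 105 of 353 were rhythmic for 301 to 1000 bp (29.7%), against 45.6% for 51 to 300 bp and 29.8% for 1001 to 2000 bp. Among protein-coding genes alone, the shares were 35.9% for 301 to 1000 bp and 49.2% for 51 to 300 bp. Along the interval the share per 100 bp was 30.4% at 301 to 400 bp and 39.1% at 901 to 1000 bp, with a lowest value of 29.8% and a highest of 40.4%.

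**Figure D2:**
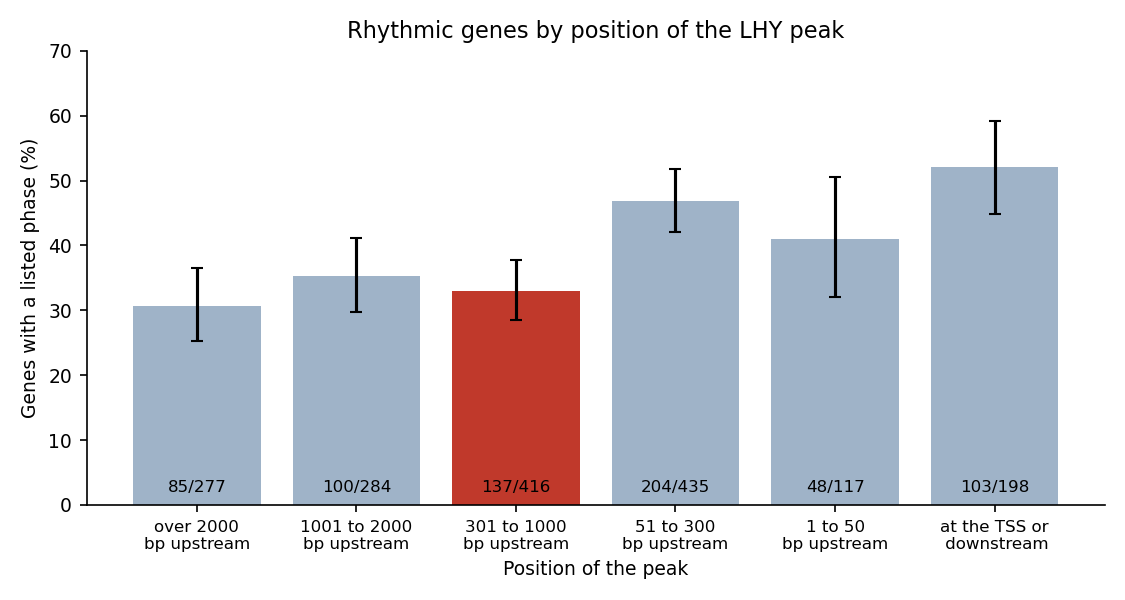
Share of genes with a listed phase of expression (%) by position of the peak, with exact 95% intervals as error bars and the counts of rhythmic and all genes in each bar; a gene with peaks in several classes counts in each. The share was 32.9% for 301 to 1000 bp upstream (red) and 46.9% for 51 to 300 bp.

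The share of rhythmic genes in the interval was higher at stronger peaks. Divided at the quartiles of −log10 q, the weakest group had 23 rhythmic genes of 104 (22.1%, exact interval 14.6 to 31.3) and the strongest had 44 of 104 (42.3%, 32.7 to 52.4). The groups between had 33.3% and 34.0%. Split at the same values, peaks 51 to 300 bp upstream gave 35.6%, 36.9%, 45.0% and 65.1% from weak to strong. These differences were not tested, and in the second group the value of 36.9% lay within the exact interval for 301 to 1000 bp (24.7 to 42.9). The split was not limited to protein-coding genes: the 24 pseudogenes of the interval, 1 of them with a phase, had a median −log10 q of 6.06. Protein-coding genes made up 90.6% of the genes that matched the annotation, against 96.1% for 51 to 300 bp. How many of the genes in either class the phase database covers was not analysed here.

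Among the rhythmic genes, the bin from 6 to 11 h held the largest number. Of the 137, 56 (40.9%, exact interval 32.6 to 49.6) had a phase of 6 to 11 h, 31 (22.6%) of 0 to 5 h, 24 (17.5%) of 12 to 17 h and 26 (19.0%, exact interval 12.8 to 26.6) of 18 to 23 h. Over the whole list, the shares were 45.4% in the 6 to 11 h bin and 14.8% in the 18 to 23 h bin. They were 49.0% and 10.8% for peaks 51 to 300 bp upstream, 36.0% and 21.0% for 1001 to 2000 bp, and 30.6% and 16.5% beyond 2000 bp. The values for 301 to 1000 bp thus lay between those of the nearer class and those from 1001 to 2000 bp. The most common hour was 8 h, with 21 genes (15.3%, against 15.2% of the other rhythmic genes in the list). Then came 5 h with 14 genes (10.2%, against 6.13%), 7 h with 13 and 19 h with 8 (5.84%, against 2.11%). These hours were picked after the values were seen.

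**Figure D3:**
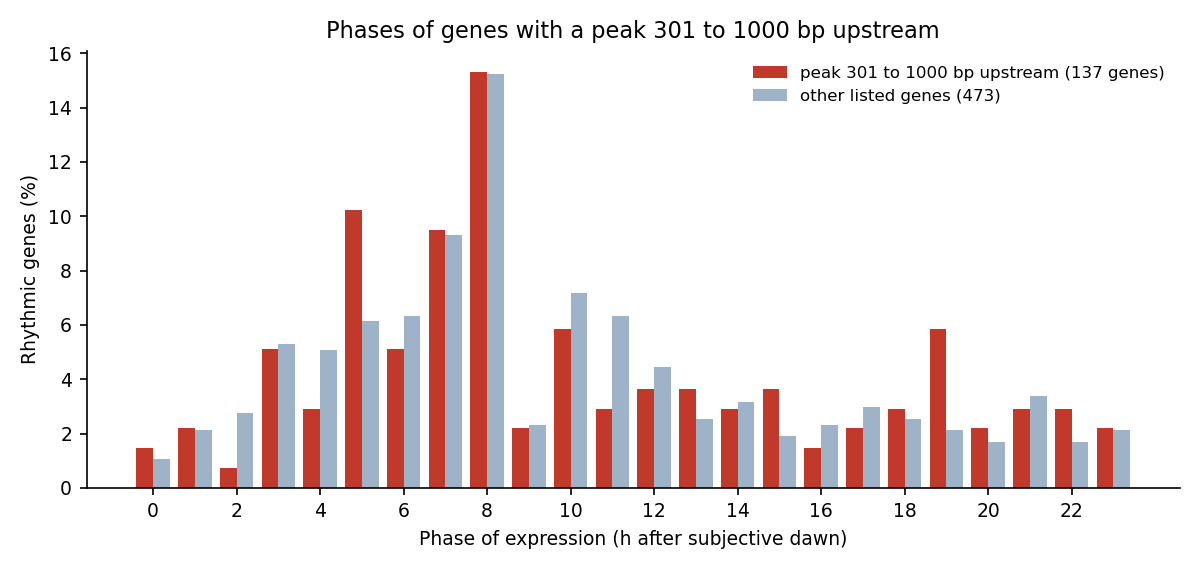
Phases of expression in hours after subjective dawn, as a percentage of the 137 rhythmic genes with a peak 301 to 1000 bp upstream (red) and of the 473 other rhythmic genes in the list (blue). Both sets are highest at 8 h (15.3% and 15.2%), and the red bars exceed the blue at 5 h and 19 h.

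The strongest rhythmic genes of each part of the day were of varied function. From 0 to 5 h they were AT1G70420, BBX29 and CHE. From 6 to 11 h they were GI, AT3G60380 and AT1G75190. From 12 to 17 h they were CcdA, GER3 and THI1 (AT5G54770), the thiamine thiazole synthase of chloroplasts, with 38.4 at −622 bp. From 18 to 23 h they were UGT84A2 and FIB, both at 19 h, and GAPCP-1 (AT1G79530), a plastid enzyme of glycolysis, with 40.4 at −522 bp. The median −log10 q of the 4 bins was 10.3, 12.4, 10.7 and 14.7 in order of time.

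Another peak was listed for 63 of the 416 genes. In 4 of them all peaks lay inside the interval, and 59 had a peak in another class. At CBF1 the peak at −772 bp (202) far exceeded the one at −64 bp (10.3), and at GI the peak at −861 bp (162) exceeded the one at −33 bp (66.0). At CHE, 77.3 at −961 bp stood against 24.2 at −1808 bp. BBX28 had 71.5 at −600 bp and 6.04 at −1172 bp, and AT1G75190 had 72.1 at −760 bp and 5.98 at 161 bp downstream of the TSS. In these 5 genes the main peak was the one 301 to 1000 bp upstream, as the rule that selected them by that peak favours.

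Over the 59 genes neither peak was stronger as a rule: the one in the interval was stronger in 30 and the other in 29. The 59 are not all independent, because some neighbours share both peaks. AT4G30350 and DGK7 count once in each direction, whereas for both DL1E and AT3G60200 the other peak was the stronger. At SLD1 (AT3G61580), a sphingolipid desaturase gene, the peak at −826 bp (38.1) exceeded that at −218 bp (16.3). At DIN10 (AT5G20250), of the raffinose synthase family, 32.8 at −538 bp stood against 9.67 at −1098 bp. BTI3 (40.7 at −628 bp), PEP (32.3 at −690 bp), a KH-domain protein gene, and ACR8 (27.3 at −896 bp) had weaker peaks farther upstream. LHCB1.3 showed the opposite, with 5.33 at −679 bp against 158 at −154 bp, and so did GRF4 (AT3G52910), a growth-regulating factor, with 8.50 at −933 bp against 58.9 at −2779 bp.

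Genes with several peaks were rhythmic in 32 of 63 cases (50.8%). Where the other peak lay nearer the TSS or downstream of it, 18 of 24 genes were rhythmic (75.0%). Where it lay farther upstream, 12 of 35 were (34.3%), and of the genes with a single peak 29.7% were. The subsets were formed after the values were seen and were not tested.

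**Figure D4:**
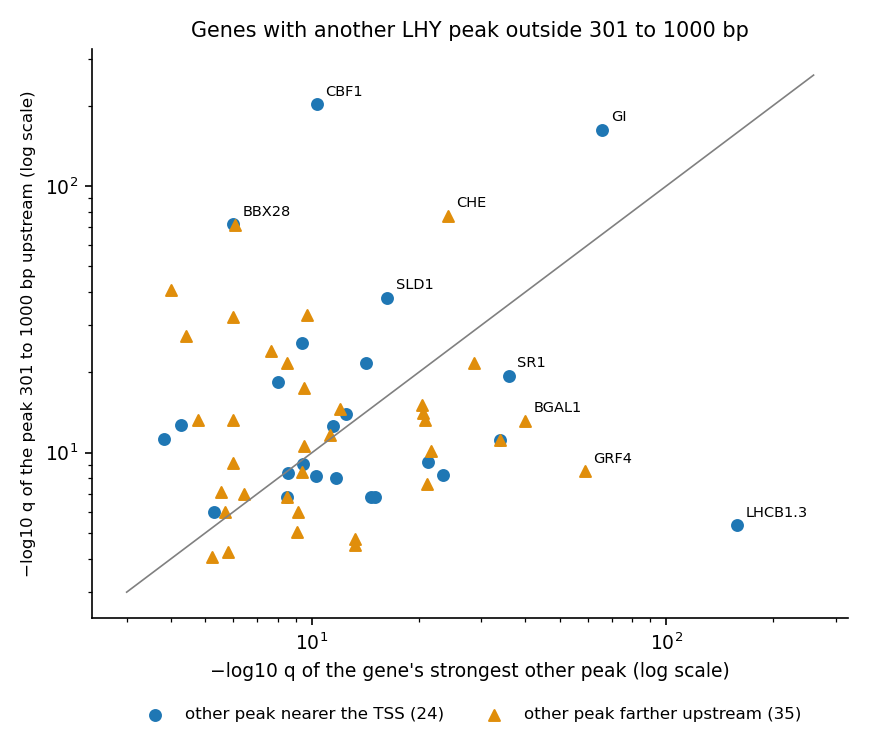
Strength (−log10 q, both axes log scale) of the strongest peak 301 to 1000 bp upstream against the strongest peak in another class, for the 59 genes with both; the line marks equal strength. The points split evenly, with 30 above the line and 29 below, CBF1 and GI far above and LHCB1.3 far below.

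Some peaks were listed under 2 neighbouring genes. A value of −log10 q listed for genes at most 5 places apart in the annotation was counted as a shared peak, and 16 of the 50 shared values in the list involved a gene with a peak in the interval. In 13 of the 16 the genes were immediate neighbours. The partner's distance was beyond 2000 bp in 8 cases, 1001 to 2000 bp in 2, 51 to 300 bp in 3 and inside the interval in 3. The strongest was the peak of 72.1 shared by AT1G75190 (−760 bp, phase 7 h) and AT1G75180 (−293 bp, phase 1 h). A peak of 32.3 was listed for PEP at −690 bp and for CIL (AT4G25990) at −3014 bp, and a peak of 21.7 for AT4G17810 at −988 bp and its neighbour AT4G17800 at −9193 bp.

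The listed distance of a shared peak often differed greatly between the partners, and which gene of a couple responds to LHY was not tested. RPT2 (AT2G30520), which acts in phototropism, shared a peak of 15.0 at −2396 bp with AT2G30530, for which it lay at −921 bp. DL1E (AT3G60190), a dynamin-like gene, and AT3G60200 shared a peak of 11.2 at −810 and −615 bp, and both had a phase of 10 h. Other shared peaks linked AT3G59340 with AT3G59350 (18.4), MYBR1 with AT5G67290 (14.6), CDC6 with AT2G29670 (13.2), AT5G02580 with AT5G02570 (13.2) and AT4G30350 with DGK7 (9.11). In all 10 couples that shared more than 1 peak, the distances to both TSSs added up to the same length for each peak, for example 1425 bp for DL1E and AT3G60200. Common values can also be equal by coincidence: the value shared by CIPK21 and AT5G57640 was listed for 57 pairs.

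Genes with a peak in the interval also lay side by side with peaks of their own. Of 15 couples at most 2 places apart, 10 shared no peak. HSFA6B, a heat shock factor gene (21.7 at −304 bp), stood beside ELIP1 (AT3G22840), an early light-induced protein gene (32.1 at −637 bp). The CBL-interacting kinase gene CIPK15 (AT5G01810, 13.4 at −766 bp) stood beside SR1 (AT5G01820, 19.4 at −383 bp), another kinase gene, with phases of 21 h and 23 h. SVL2 (15.2 at −455 bp, phase 19 h) stood beside SNC4 (32.4 at −447 bp, phase 7 h), and TEM1 beside AT1G25550, a MYB-like factor gene (8.03 at −631 bp). Neighbouring genes are not independent members.

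Functions were read from the words of the authors' gene descriptions. The words were chosen after the data were seen, and no test was made. Auxin was named for 16 of the 416 genes (3.85%, exact interval 2.21 to 6.17) and for 16 of the other 1186 (1.35%); with a peak 51 to 300 bp upstream the share was 1.38%. Thus 50.0% of the listed genes with auxin words had a peak 301 to 1000 bp upstream, whereas 26.0% of all listed genes did. Next to DFL2 they included LRP1 (AT5G12330, 27.5 at −689 bp), which acts in lateral root primordia, and HAT2 (AT5G47370, 14.03 at −801 bp), an auxin-induced homeodomain factor. Response factors of the ARF family were ARF11 and ARF16 (10.3 each) and ARF2 (3.81). TPL, a corepressor that Aux/IAA proteins recruit, had 5.54. The small auxin-upregulated RNA family had AT1G75580 (13.2), AT4G13790 (12.2) and SAUR63 (6.80). Of the 16 genes, 9 were rhythmic (56.25%, against 32.9% of all 416), and the median −log10 q was 10.4, close to that of all 420 pairs. Every other named function also exceeded 32.9%, for example 45.5% for protein kinases and 50.0% for cell wall and pectin. Unknown proteins had 23.9%. The words also matched SNC1, which the defense words matched as well, and the dormancy-associated gene DYL1. In the Aux/IAA group, 6 of 20 members had a peak in the list and 1, IAA27, had it in the interval.

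Cold was named for 11 of the 416 genes (2.64%, exact interval 1.33 to 4.68) and for 16 of the others (1.35%), against 10 of the 435 genes with a peak 51 to 300 bp upstream. Of the 11 genes, 10 were rhythmic (90.9%, against 32.9% of all 416, a share that the other named functions exceeded too). The share among cold-word genes elsewhere in the list is not given here. They were BBX29, GER3, FIB, THI1, DIN10, SEX1, the RNA-binding protein gene AT2G37220 (17.8), COR47, SOC1, SFR2 (AT3G06510, 7.55), a galactolipid-remodelling enzyme of freezing tolerance, and PGM (AT5G51820, 5.59), the plastid phosphoglucomutase of starch synthesis. Their phases ran from 3 h at BBX29 to 19 h at FIB, and SOC1 was the gene without a phase. CBF1 and CBF4, which had no listed phase, are not among the 11, because the authors' descriptions of them do not hold the words.

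Words for protein kinases matched 22 genes (5.29%, against 3.29% of the others), among them DGK7, which encodes a lipid kinase. After MAPKKK17 they were NIK3 (AT1G60800, 44.1), SNC4 (32.4), AT2G23450 (22.1), SR1 (19.4), AT1G65950 (14.2), CIPK15 (13.4) and FER (AT3G51550, 12.6), the receptor kinase FERONIA of cell growth. Words for transcription regulators matched 40 genes (9.62%, against 8.94%). They missed factors such as HCA2, COL9, CDF1, CDF5, NAC019 and WRKY8, whose descriptions do not hold them, so the count is too low. Cell wall and pectin were named for 16 (3.85%, against 3.79%) and membrane transport for 15 (3.61%, against 4.05%). The cell wall group held the xyloglucan-modifying enzyme gene XTH9 (13.96 at −714 bp) and the expansin gene EXPA9 (11.3 at −502 bp). The transport group held the anion channel gene SLAH2 (32.4 at −343 bp) and the antiporter gene KEA1 (18.3 at −469 bp).

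Words for chloroplast, photosynthesis and salt stress stood at lower shares in the interval than in the rest of the list, again without a test. Chloroplast was named for 40 genes (9.62%, exact interval 6.96 to 12.9), against 14.2% of the other listed genes and 16.1% of those with a peak 51 to 300 bp upstream. Photosynthesis was named for 1 gene, LHCB1.3, against 18 of the others, and salt stress for 2, AT3G28220 and AT1G13930, against 27. Genes with the chloroplast words included GAPCP-1, ACHT4 (AT1G08570, 37.3), a chloroplast thioredoxin, SEX1, and ISA1 (AT2G39930, 10.3), a debranching enzyme of starch. These words also matched transcription factors such as CBF4, TEM1 and ARF2, and missed CcdA, FIB and THI1. The share is therefore one of words in descriptions and not of chloroplast proteins. Unknown proteins were named for 92 genes (22.1%), near the 23.6% of the others.

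**Figure D5:**
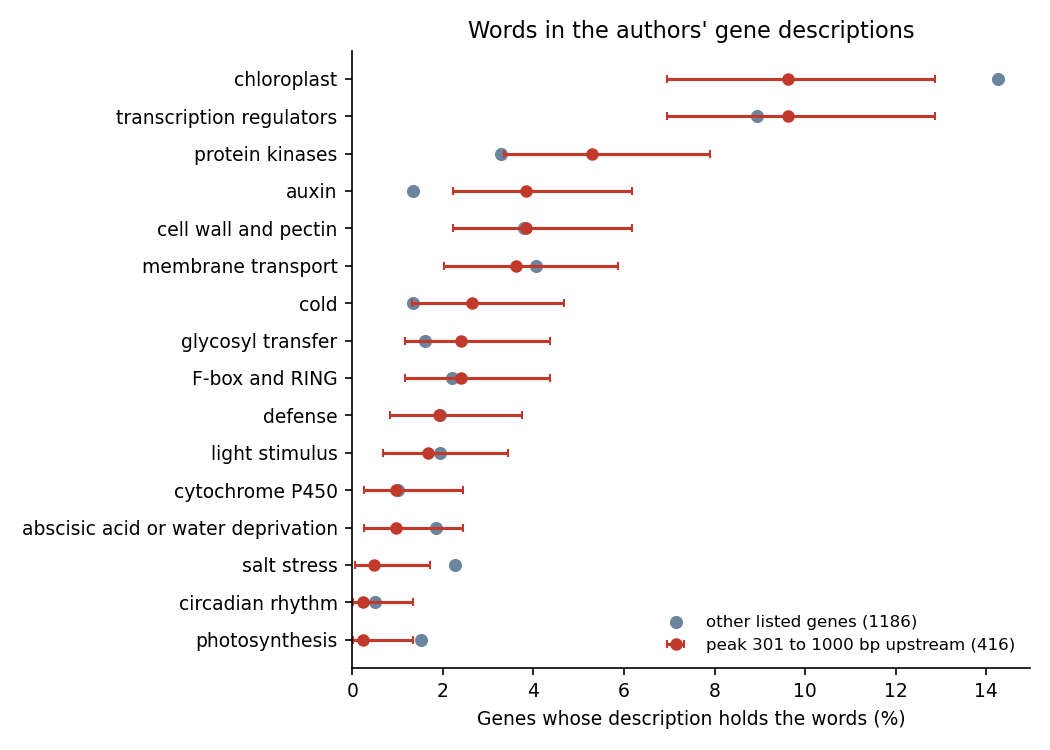
Percentage of genes whose description in the authors' table holds words of each function, for the 416 genes with a peak 301 to 1000 bp upstream (red, with exact 95% intervals) and the 1186 other listed genes (blue). Auxin stands higher in red (3.85% against 1.35%), and chloroplast (9.62% against 14.2%) and salt stress stand lower.

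Of the 415 genes that matched the annotation, 376 were protein-coding (90.6%, against 92.5% of the whole list). Pseudogenes numbered 24, with a median of 6.06 and a highest value of 25.5, and transcribed pseudogenes 5. A phase was listed for 1 gene of each of these kinds. The tRNA genes were AT2G39860 (42.3 at −412 bp), AT5G14495 (14.6) and AT1G22320 (4.65), and the miRNA genes were MIR825 (13.3 at −334 bp) and MIR167d (9.39 at −977 bp). The protein-coding genes with a peak in the interval made up 1.27 to 1.47% of those on each of the 5 chromosomes.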

How the data were processed

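ChIP-seq was carried out on 1 pooled library of LHY-bound DNA and 1 input library. The submitters' processing notes name Bowtie, MACS2 2.0.10.09132012 and the build TAIR9. Bowtie's version and the cut-off for peaks are, like the point of a peak to which its position refers, not given in the sources used here. In the deposited gene table the authors list up to 4 peaks per gene, each with its −log10 q and its distance in bp from the TSS, per the file headers. Elsewhere in the headers these values are named −log10 of a p-value. Peaks were assigned by the authors to the nearest gene that faces away, per the file headers, so upstream positions are favoured by construction. The phases in constant light are entries of the Diurnal database (cut-off 0.8) that the authors added, per the file headers; they were not measured here. Genes without a phase include any that the database does not hold.

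The deposited values were used without change. Pairs from −1000 to −301 bp were counted and described, with exact Clopper-Pearson intervals at 95% for shares and exact order-statistic intervals for medians. Both cover counting error over genes and not variation between chromatin preparations, and no significance test was made. Loci were matched to RefSeq genes of TAIR10.1 for symbols, biotypes and neighbour order (1596 of 1602 loci, and 415 of the 416 described here), and no coordinate from it was used. The background was 27444 nuclear protein-coding genes. The members and the 12 groups of genes were chosen with earlier results of these data known. The text names the 20 strongest pairs, every group member with a peak in the interval, the 3 strongest genes per 6 h of phase, the 10 strongest genes with a peak in another class, up to 10 shared peaks, and 3 pairs on each side of both bounds. Other genes, the words for functions and the subsets by number of peaks were chosen after values were seen. Alternatives covered the bounds, peak strength, shared peaks, genes with several peaks, biotype and the hours counted. Python 3.11.15, NumPy 2.4.6, pandas 2.3.3, SciPy 1.17.1 and matplotlib 3.10.9 were used, and the counting was tested on simulated data.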

Additional observations from a re-analysis of the deposited data

How the results depend on the processing

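Of 33 alternative values, 30 kept within 1.5 times the count reported or within the exact 95% interval of the share or median. The number of pairs ran from 295 to 518 over 6 of these, against 420. The share of rhythmic genes ran from 29.7 to 37.6% over 7 alternatives, and that of phases at 6 to 11 h from 33.6% (8 to 13 h counted instead) to 45.4% over 9. With peaks above the list median alone, by construction, the pairs numbered 213 and their median −log10 q was 18.2. With both bounds moved inward by 100 bp, 10 of the 16 group members remained within the bounds; CHE, CBF4, COR47, CDF5, SPA1 and UBQ10 lay outside them by position. With the far bound moved out by 100 bp and the near bound by 50 bp there were 24 members, against 16. No paired analysis was possible because neither the ChIP nor the input has replicates, and for the same reason no library could be left out. Depth was unknown, and the input control does not measure binding of the antiserum to other proteins.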
